A study of Homo sapiens with 8 samples.

Results

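The genes described here were 56 genes of mitotic entry, the spindle and the kinetochore, taken by name from a gene list in 7 roles and looked up in RNA-seq of colorectal cancer cells. All 56 were found among the 17309 genes of the deposited counts, where they were represented by 263 of 78953 RefSeq transcripts (1 to 18 per gene, median 4), and all 56 passed the low-count filter into the 13619 genes tested. SW480 and DLD-1 are established human colorectal cancer cell lines, labelled wild type, and each line was infected either with shControl lentivirus or with shNAT10 lentivirus, which carries a hairpin against the RNA acetyltransferase NAT10. This gave 4 groups of 2 libraries: DLD-1 shControl, DLD-1 shNAT10, SW480 shControl and SW480 shNAT10. The labels call the libraries of a group biological replicates without saying what separated them, and they do not say which NAT10 hairpin was sequenced, and nothing in them shows that more than 1 infection or hairpin stood behind a group. The comparison of the lines asked how the mitotic programme differed between SW480 and DLD-1, and the comparison within each line asked how it moved when NAT10 was knocked down.

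Cells enter mitosis when CDK1, bound to cyclin A2 or cyclin B, is switched on by CDC25 phosphatases. The spindle then attaches to each chromosome at the kinetochore, a layered structure built on CENP-A nucleosomes in which the NDC80 complex holds the microtubule, while the spindle checkpoint kinases and the MAD2 and BUBR1 proteins restrain CDC20 until every chromosome is attached. Once they are, the anaphase-promoting complex (APC/C) with CDC20 marks securin and cyclin B for destruction, separase cuts cohesin, and the sister chromatids part. Most of these genes are transcribed late in the cycle, under the DREAM complex, B-MYB and FOXM1, and their summed mRNA is widely used as a proliferation readout in tumours.

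The libraries held 15147805 to 17271336 estimated counts. NAT10 itself was 122 and 122 CPM (TMM-normalized counts scaled to the same library total) in SW480 shControl against 23.6 and 27.9 CPM after knockdown, and 121 and 121 against 59.0 and 54.4 CPM in DLD-1, so that its mRNA fell to 0.210 and 0.470 times the control level (log2 fold change -2.25 ± 0.0869 and -1.09 ± 0.0812, standard error; edgeR quasi-likelihood test, adjusted p = 3.74e-09 and 2.73e-05). All 10 colorectal epithelial markers passed the filter, with summed levels of 7606 to 8185 CPM in DLD-1 and 3187 to 3943 CPM in SW480. Most of each sum came from KRT8 (1562 to 3846 CPM) and KRT18 (1127 to 2391 CPM). KRT20 was under 1 CPM in SW480, and LGALS4 was at 0.65 to 1.35 CPM in DLD-1. Of 8 markers of blood, endothelial and stromal cells that were analysed, 3 (CD68, COL1A1, PDGFRB) passed the filter and 5 (CD3E, PECAM1, CDH5, COL1A2, DCN) stayed under 1 CPM in every library. The summed level of that list was 19.2 to 23.1 CPM in DLD-1 and 32.0 to 34.8 CPM in SW480. The SW480 shNAT10 libraries differed most from each other, with a chi-square per gene of 9.77 between replicates against 3.32 to 4.59 in the other 3 groups. The number of members called in the SW480 knockdown is given below with and without each, as are some of the estimates.

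The 56 mitotic genes took between 0.772% and 0.834% of the normalized counts. In DLD-1 the share was 0.810% and 0.832% with shControl and 0.814% and 0.834% with shNAT10, and the SW480 controls had 0.827% and 0.829%. In SW480 shNAT10 it was 0.772% in replicate 1 and 0.817% in replicate 2, the former the lowest of the 8 libraries. These are bulk libraries, in which fewer cells in mitosis and less mitotic mRNA per cell cannot be told apart.

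Per length, the mitotic genes stood well above the typical gene. Their median in the shControl libraries was 40.3 FPKM (fragments per kilobase, scaled to depth, as deposited and summed over a gene's transcripts) in DLD-1 and 37.0 FPKM in SW480, where the median of all genes tested was 10.0 and 10.1 FPKM. CKS1B, a small subunit that docks on cyclin-dependent kinases, stood highest in DLD-1 at 375 ± 25.5 FPKM (SD, n = 2), followed by PTTG1, which encodes securin, at 334 ± 23.6 FPKM. In SW480 these 2 changed places, at 319 ± 12.5 and 369 ± 30.5 FPKM, a gap about as large as the spread between the replicates. UBE2C, the ubiquitin-conjugating enzyme that starts chains on APC/C substrates, came next in both lines at 194 ± 9.76 and 296 ± 23.0 FPKM. Among the abundant members were also CDC20 (180.0 ± 4.0 FPKM in DLD-1 and 141 ± 3.71 in SW480), CCNB1 (122 ± 2.09 and 120.4 ± 2.55) and TPX2 (97.0 ± 1.97 and 153 ± 1.84), an activator of AURKA on spindle microtubules. The lowest were 2 very large kinetochore proteins, the kinesin CENPE at 6.24 ± 0.601 and 9.04 ± 0.269 FPKM and the scaffold KNL1 at 9.98 ± 1.18 and 7.70 ± 0.799 FPKM.

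What the promoters of these genes have in common was read from RefSeq (GRCh38.p14), in windows from 250 bases before to 50 bases after each transcription start. Cell cycle genes of this kind are known for a CHR element, with the core letters TTTGAA and a related form with the letters TTTAAA, which the DREAM complex and B-MYB read, and for CCAAT boxes bound by NF-Y. A promoter was matched for 48 of the 56 genes (62 promoters), and none was matched for AURKA, BIRC5, BUB3, FOXM1, KNL1, TPX2, TTK and UBE2C. The CHR letters (either form) were found on either strand in 45 of the 62 promoters (72.6%) against 24.0% of all 35116 promoters. CCAAT was found on either strand in 43 (69.4%, against 34.6%), and both were found in 34 (54.8%, against 9.27%). Each motif was counted on its own, so that matches of different motifs may share a base, a match describes the letters only, and genes with several starts contribute several promoters. In 20 promoters of 19 genes the CHR letters began between 40 and 11 bases before the start. The 100 bases that end just before the start are printed for 6 members, CCNB1, CCNB2 and CKS2 as mitotic entry genes that carry both kinds of letters close together, NCAPG and BUB1B as genes with the CHR letters alone in this stretch, and ESPL1 with 1 of each. They run 5′ to 3′ on the plus strand, and capitals mark the CHR and CCAAT letters or their reverse complements.
CCNB1 (chr5:69167050-69167149, +): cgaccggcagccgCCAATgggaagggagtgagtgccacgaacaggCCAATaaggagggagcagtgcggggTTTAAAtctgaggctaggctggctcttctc
CCNB2 (chr15:59105046-59105145, +): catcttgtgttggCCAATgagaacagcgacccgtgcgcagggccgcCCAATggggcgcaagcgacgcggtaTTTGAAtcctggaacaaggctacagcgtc
CKS2 (chr9:89311095-89311194, +): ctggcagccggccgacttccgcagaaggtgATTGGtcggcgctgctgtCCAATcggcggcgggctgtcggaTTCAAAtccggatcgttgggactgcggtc
NCAPG (chr4:17810879-17810978, +): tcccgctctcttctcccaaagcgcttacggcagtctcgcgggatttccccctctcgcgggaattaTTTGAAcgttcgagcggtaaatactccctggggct
ESPL1 (chr12:53268199-53268298, +): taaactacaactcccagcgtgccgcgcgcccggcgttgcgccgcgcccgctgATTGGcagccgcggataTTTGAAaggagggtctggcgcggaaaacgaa
BUB1B (chr15:40160969-40161068, +): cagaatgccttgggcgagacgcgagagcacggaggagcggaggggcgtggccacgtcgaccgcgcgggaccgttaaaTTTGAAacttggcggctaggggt

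**Figure D1:**
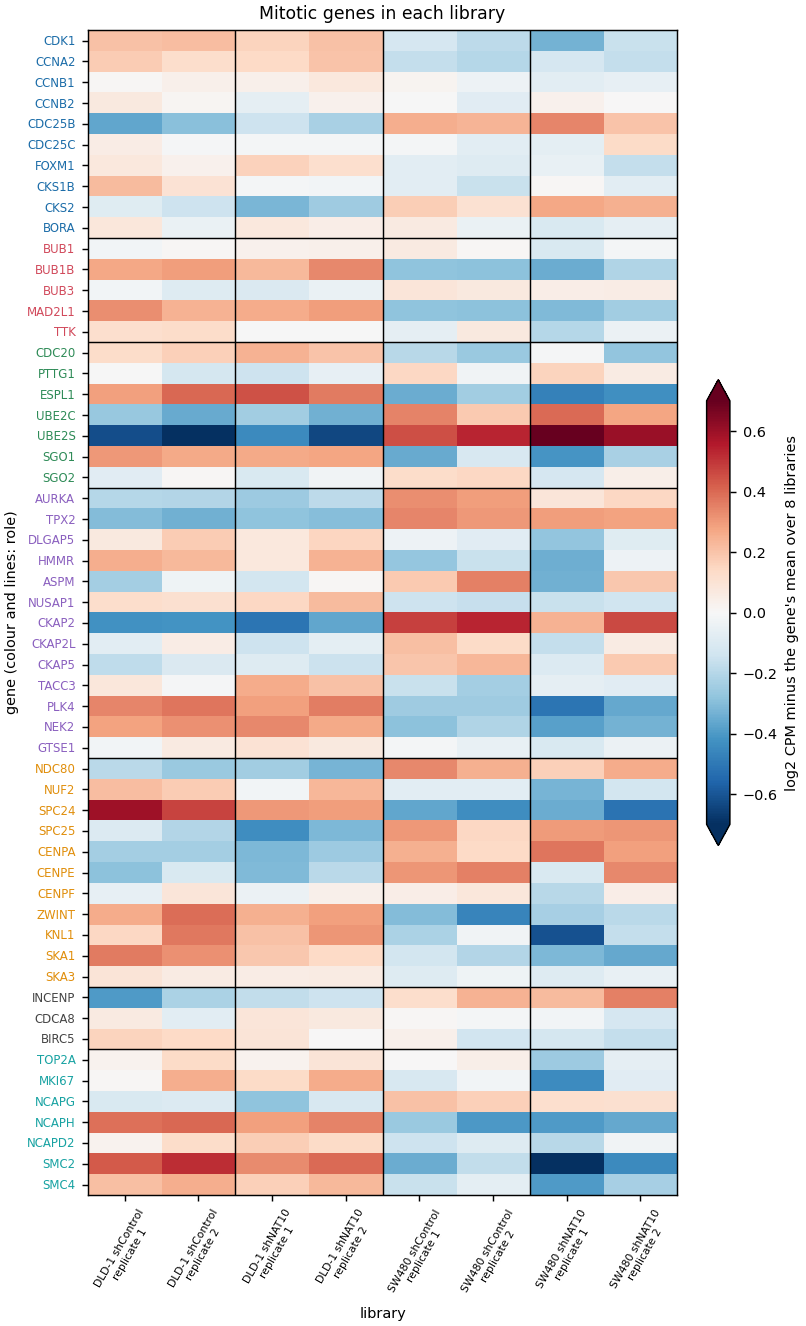
Level of each of the 56 mitotic genes (rows, grouped and coloured by role) in each of the 8 libraries (columns), as log2 CPM minus the mean of that gene over the 8 libraries, with red above and blue below the mean and colours capped at 0.7 in either direction. Most of the contrast lies between the 4 DLD-1 and the 4 SW480 columns, and the column of SW480 shNAT10 replicate 1 is bluer than its replicate for ASPM, KNL1, SMC2 and MKI67.

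In the fit of the 4 groups, none of the 56 mitotic genes passed the test for a change on NAT10 knockdown in either line. In SW480, 0 of 56 were called at an adjusted p under 0.05 (edgeR quasi-likelihood test, Benjamini-Hochberg over all genes tested), where 0.903% of all genes were called lower and 0.778% higher. At an unadjusted p under 0.05, 9 were lower and 2 higher, where 10.6% and 8.69% of all genes were. DESeq2 called 1 of the 56, SMC2, and 4.33% of the 7018 genes to which it gave an adjusted p. In DLD-1, 0 of 56 were called as well, against 0.0147% lower and 0% higher among all genes, with 5 lower and 1 higher at an unadjusted p under 0.05 (2.94% and 3.03% of all genes) and 0 called by DESeq2. The median log2 fold change of the members was -0.06 in SW480 and -0.02 in DLD-1, where the median of all genes tested was -0.01 and 0.00. Single estimates spanned -0.32 to 0.22 in SW480 and, in DLD-1, -0.24 to 0.20, and the 95% intervals of all members lay within -0.60 to 0.39 for SW480 and within -0.44 to 0.35 for DLD-1. With the limits the study used (a fold change above 1.2 or below 0.83 with an unadjusted p under 0.05), SMC2 and ASPM passed as lower in SW480 and no member passed in DLD-1. Of all genes tested 4.98% passed them as lower and 4.1% as higher in SW480, and 1.34% and 1.34% in DLD-1. Both libraries of shNAT10 lay below both of shControl for 22 members in SW480 and above them for 6 (39.3% and 10.7%, with 26.2% and 21.7% over all genes). The same counts in DLD-1 were 13 and 11 (23.2% and 19.6%, with 18.2% and 17.7% over all genes).

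**Figure D2:**
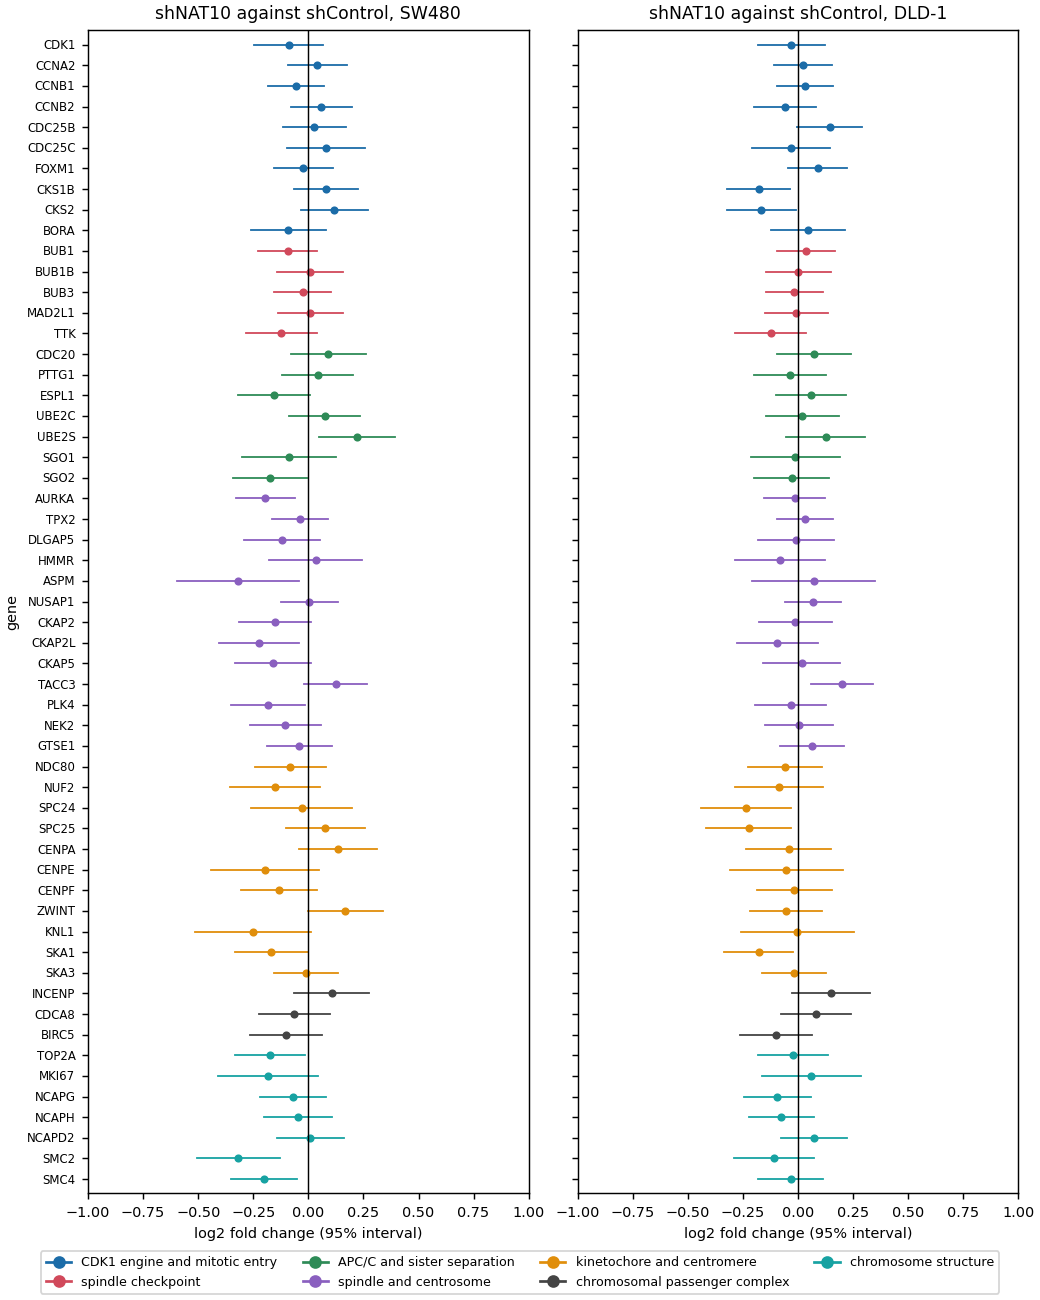
Log2 fold change of shNAT10 against shControl with its 95% interval for each of the 56 mitotic genes, in SW480 (left) and DLD-1 (right), coloured by role. SW480 estimates lie between -0.32 and 0.22, DLD-1 estimates between -0.24 and 0.20, and none passed the adjusted test.

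Differences on knockdown were small in the core of the mitotic engine. CDK1, the kinase that drives mitotic entry, was 117 and 112 CPM in the SW480 controls and 101 and 114 CPM after knockdown, and 146 and 147 against 141 and 146 CPM in DLD-1. Replicate 2 of SW480 shNAT10 lay between the controls, and replicate 2 of DLD-1 shNAT10 was level with the lower control. Its log2 fold change was -0.09 (95% interval -0.25 to 0.07) in SW480 and -0.03 (-0.18 to 0.12) in DLD-1. CCNB1, its cyclin, was 214 and 206 against 201 and 203 CPM in SW480 and 212 and 217 against 216 and 222 CPM in DLD-1, differences of -0.06 and 0.03 on the log2 scale. FOXM1, the transcription factor of late cell cycle genes, was 206 and 203 against 209 and 194 CPM in SW480 and 229 and 221 against 243 and 235 CPM in DLD-1, where the 2 knockdown libraries were the higher ones (0.09, -0.05 to 0.22). The kinase-docking subunits CKS1B and CKS2 had estimates of opposite sign in the 2 lines and passed in neither. CKS1B was 200.2 and 184 against 169.8 and 169.7 CPM in DLD-1 (-0.18, adjusted p = 0.777) and 163 and 154 against 172 and 163 CPM in SW480 (0.08). CKS2 was 62.0 and 59.4 against 52.8 and 55.3 CPM in DLD-1 (-0.17, adjusted p = 0.828) and 74.3 and 71.0 against 79.4 and 78.3 CPM in SW480 (0.12). Over the 10 genes of this role the intervals stayed within -0.26 to 0.27 (SW480) and -0.32 to 0.29 (DLD-1).

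The 5 spindle checkpoint genes had log2 fold changes of -0.12 to 0.01 on knockdown of SW480, and of -0.13 to 0.04 for DLD-1. BUB1B, which encodes the checkpoint protein BUBR1, was 105 and 104 against 99.9 and 109.9 CPM in SW480 (0.01, 95% interval -0.14 to 0.16) and 153 and 155 against 149 and 160.2 CPM in DLD-1 (0.00, -0.15 to 0.15). In either line the knockdown libraries enclosed the control libraries. CDC20, the APC/C activator, was 197 and 188 against 224 and 186 CPM in SW480 and 245 and 253 against 266 and 258 CPM in DLD-1, with replicate 1 of SW480 shNAT10 well above the other 3 SW480 libraries. PTTG1 was 176 and 157 against 177 and 166 CPM in SW480 and 159 and 146 against 144 and 153 CPM in DLD-1, with overlap in both lines. UBE2S, the enzyme that extends ubiquitin chains on APC/C substrates, had the highest estimate of the 56 in SW480, 328 and 347 CPM against 422 and 365 CPM (0.22 ± 0.0807, adjusted p = 0.167), and 0.13 in DLD-1.

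Among spindle and centrosome genes, 10 of 13 estimates were below 0 in SW480 and 6 of 13 in DLD-1. The same counts over all genes were 7071 and 6672 of 13619. AURKA, the kinase that matures centrosomes, was 182 and 178 CPM in the SW480 controls and 154 and 161 CPM after knockdown, so that both knockdown libraries lay below both controls (-0.20 ± 0.0626, adjusted p = 0.125). In DLD-1 it was 127 and 126 against 122 and 128 CPM (-0.02, 95% interval -0.15 to 0.12). ASPM, a very long gene of the spindle pole, was 160.5 and 181 CPM in the SW480 controls and 112 and 161.3 CPM after knockdown, a difference of -0.32 ± 0.129 (adjusted p = 0.1996) in which replicate 1 lay below the controls and replicate 2 between them. PLK4, the kinase that starts centriole duplication, was 52.2 and 52.3 against 43.6 and 48.5 CPM in SW480 (-0.18, adjusted p = 0.222) and 78.6 and 80.6 against 75.9 and 79.6 CPM in DLD-1 (-0.03). TACC3, a stabilizer of spindle microtubules, had the lowest p of the members in DLD-1, with 135 and 127 CPM in shControl and 153 and 147 CPM in shNAT10 (0.20 ± 0.0662, adjusted p = 0.652). It was 115 and 108 against 122 and 121 CPM in SW480 (0.13), so that its knockdown libraries lay above the controls in either line. No other member was higher without overlap in both lines, while 3 were lower without overlap in both (NCAPG, SKA1 and SMC2). Of these, SKA1 was at -0.17 in SW480 and -0.18 in DLD-1 (adjusted p = 0.254 and 0.816). The share of all genes without overlap in both lines was not computed.

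At the kinetochore, all 11 estimates were below 0 in DLD-1 and 8 of 11 in SW480, with medians of -0.06 and -0.08. Of the 13619 genes tested, 6672 had an estimate below 0 in DLD-1 and 7071 in SW480. NDC80, the microtubule-binding subunit for which the complex is named, was 77.1 and 72.6 against 68.5 and 73.0 CPM in SW480 (-0.08, 95% interval -0.24 to 0.08) and 53.6 and 51.0 against 51.5 and 48.7 CPM in DLD-1 (-0.06, -0.23 to 0.11). Its partners SPC24 and SPC25, which anchor the complex to the inner kinetochore, had the lowest estimates in DLD-1. SPC24 was 29.4 and 27.1 against 24.0 and 23.9 CPM there (-0.24, adjusted p = 0.807) and SPC25 was 31.1 and 28.8 against 24.6 and 26.7 CPM (-0.23, adjusted p = 0.807). For both, the knockdown libraries were below the controls, while in SW480 the estimates were -0.03 and 0.08. CENPA, the histone H3 variant that marks the centromere, was 32.9 and 30.6 against 36.0 and 33.8 CPM in SW480 (0.14) and 23.5 and 23.5 against 22.3 and 23.3 CPM in DLD-1 (-0.04). BIRC5, survivin of the chromosomal passenger complex, differed by -0.10 (-0.26 to 0.06) in SW480 and -0.10 (-0.26 to 0.06) in DLD-1.

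The lowest p of the 56 in SW480 belonged to a chromosome structure gene. SMC2, the ATPase core of condensin, was 111 and 125 CPM in the SW480 controls and 85.6 and 103 CPM after knockdown, so that both knockdown libraries were below both controls (-0.32 ± 0.0884, adjusted p = 0.0874). In DLD-1 it was 189 and 201 against 177 and 185 CPM (-0.11, adjusted p = 0.924). Its partner SMC4 was 181 and 192 against 153 and 171 CPM in SW480 (-0.20, adjusted p = 0.152). TOP2A, which untangles sister DNA, was 493 and 507 against 413 and 472 CPM (-0.17, adjusted p = 0.218) in SW480 and 500.5 and 541 against 501 and 525 CPM (-0.02) in DLD-1. MKI67, the proliferation marker that coats mitotic chromosomes, was 580.0 and 619 against 463 and 594 CPM (-0.18, -0.41 to 0.04) in SW480 and 632 and 748 against 688 and 751 CPM (0.06, -0.17 to 0.28) in DLD-1. For SMC4 and TOP2A the SW480 knockdown libraries were the 2 lowest, and for MKI67 replicate 2 lay between the controls.

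The low estimates of SW480 shNAT10 went with transcript length. Over the 56 mitotic genes, whose longest coding transcripts ran from 613 bases (CKS2) to 12678 bases (MKI67), the SW480 knockdown log2 fold change correlated with log2 length at a Pearson r of -0.63 and a Spearman rho of -0.60. Over 13080 genes of known length the values were -0.23 and -0.42. These are correlations across genes of the same libraries, and genes are not independent replicates. Taken alone against the mean of the SW480 controls, replicate 1 gave a Pearson r of -0.69 and replicate 2 a Pearson r of -0.29 over the members (-0.47 and -0.14 over all genes of known length), and ASPM, KNL1, SMC2, CENPE and MKI67, all long, were lowest in replicate 1. In DLD-1 the knockdown gave 0.29 (Pearson) and 0.22 (Spearman). Replicate 1 minus replicate 2 also went with length where no knockdown was involved, at a Pearson r of -0.67 in the DLD-1 controls and -0.61 in the SW480 controls, against -0.64 and -0.19 in the shNAT10 libraries of SW480 and DLD-1. Over all genes of known length the same values were weaker and of the same sign, at -0.23 and -0.25 in the controls and -0.41 and -0.08 in the shNAT10 libraries. Without SW480 shNAT10 replicate 2, 15 members were called in SW480 (13 lower: SMC4, SMC2, CENPE, CENPF, PLK4, CKAP2L, ASPM, CKAP2, MKI67, KNL1, AURKA, TOP2A and CKAP5; 2 higher: UBE2S and CDC20), with the single remaining library assumed to vary like the other groups. These are 26.8% of the members, where 15.6% of all genes were called in that fit. Without SW480 shNAT10 replicate 1, 0 were called, and with a correction for transcript length 1 was called, AURKA at a log2 fold change of -0.27 (0.492% and 2.61% of all genes were called in these fits). The part of transcript length in the SW480 values beyond this correction was not tested.

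The knockdown effects of the 2 lines were not shown to differ for any member. In the test of the difference itself, 0 of 56 were called, where 0.00734% of all genes (NAT10 alone) were called. DESeq2 called 0, and 3 members had an unadjusted p under 0.05, where 9.38% of all genes had. These were CKS2 (0.29, 95% interval 0.07 to 0.50), CKS1B (0.26, 0.06 to 0.46) and SPC25 (0.30, 0.04 to 0.57), with adjusted p of 0.488, 0.488 and 0.493. Each had a knockdown estimate above 0 in SW480 and below 0 in DLD-1. The widest interval belonged to ASPM, at -0.39 (-0.78 to 0.00).

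Between the lines, by contrast, the mitotic genes differed in both directions. In the shControl libraries 15 of 56 were higher in SW480 and 23 were lower (26.8% and 41.1%), where 38.1% of all genes were higher and 35.6% were lower, and the median log2 fold change of SW480 against DLD-1 was -0.10 for the members and 0.01 for all genes tested. Estimates ran from -0.94 for SPC24 to 1.16 for UBE2S. The shNAT10 libraries, which share no library with this comparison, gave 14 higher and 27 lower (against 38.2% and 36.3% of all genes) with a median of -0.14. In both sets 35 members were called, all 35 with the same sign, 13 higher and 22 lower in SW480. That is 62.5% of the members, where 66.4% of all genes were called in both sets and 66.3% with the same sign. In only the shControl set ASPM, CKAP5 and CKS1B were called, and in only the shNAT10 set DLGAP5, FOXM1, GTSE1, MKI67, PTTG1 and TOP2A were. The estimates of the 2 sets had a Pearson r of 0.95 and the same sign in 51 of 56 members (91.1%), where all genes tested gave 0.97 and 91.6%. Without 1 of the 4 libraries of a set, 3 to 4 of the 38 calls and 2 to 5 of the 41 calls were lost. These were ASPM, BIRC5, CKS2, KNL1, NCAPD2, NUF2 and TACC3 in the shControl libraries and BIRC5, CENPE, GTSE1, HMMR, NUF2, PTTG1 and TOP2A in the shNAT10 libraries, and no called member changed sign. With the transcript length correction CKS2 lost its call in both sets and PTTG1 lost its call in the shNAT10 set, where its estimate turned below 0. The 12 members called in neither set included both B-type cyclins, the kinases BUB1 and TTK, and CENPF.

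**Figure D3:**
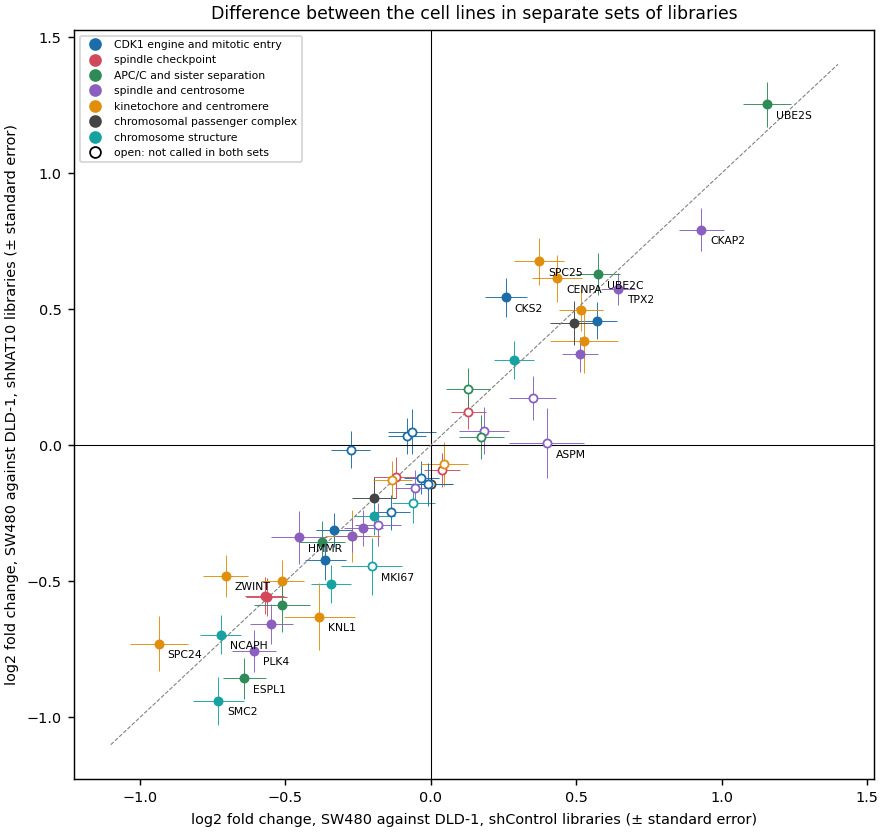
Log2 fold change of SW480 against DLD-1 for the 56 mitotic genes in the shControl libraries (x axis) and in the shNAT10 libraries (y axis), with standard errors as bars, coloured by role, open where not called in both sets. The 35 filled points lie in the lower left and upper right fields of the plot only, from SPC24 and SMC2 to UBE2S.

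The engine was lower in SW480 at the kinase and mixed around it. CDK1 was 117 and 112 CPM in SW480 shControl and 146 and 147 CPM in DLD-1 shControl (-0.36 ± 0.0718, adjusted p = 0.000362), and all 4 SW480 libraries lay below all 4 DLD-1 libraries. CCNA2, cyclin A2, followed it, with 168 and 165 against 214 and 206 CPM (-0.33). CDC25B, the phosphatase that first activates CDK1 at centrosomes, went the other way, with 211 and 209 CPM in SW480 and 138 and 145 CPM in DLD-1 (0.57 ± 0.0679, adjusted p = 2.58e-06). Its relative CDC25C was 42.4 and 40.7 against 44.3 and 42.6 CPM (-0.06, 95% interval -0.24 to 0.11). CCNB1 differed by -0.03 (-0.16 to 0.10), and FOXM1 by -0.14 (95% interval -0.27 to -0.00061, adjusted p = 0.0652).

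The mRNAs of BUB1B and MAD2L1, whose proteins sit in the CDC20 inhibitor, were lower in SW480, and those of UBE2S and UBE2C, ubiquitin-conjugating enzymes of the APC/C, were higher. BUB1B was 105 and 104 CPM in SW480 shControl against 153 and 155 CPM in DLD-1 shControl (-0.56 ± 0.0700, adjusted p = 4.18e-06). MAD2L1, which encodes MAD2, was 84.9 and 84.5 against 129 and 122 CPM (-0.57 ± 0.0673, adjusted p = 2.46e-06). Their target CDC20 was lower as well, with 197 and 188 against 245 and 253 CPM (-0.37, adjusted p = 0.000606), whereas BUB3, another subunit of the inhibitor, differed by 0.13 (0.00 to 0.26) and was not called. UBE2S (Entrez gene 27338, chr19:55399745-55407788) was 328 and 347 CPM in the SW480 controls and 422 and 365 CPM after knockdown, and 156 and 147 and then 176 and 154 CPM in the same groups of DLD-1. No library of either line overlapped, and this 2.23-fold difference in the controls (1.16 ± 0.0830, adjusted p = 1.06e-08) had the highest estimate of the 56. UBE2C was 1.49-fold higher, with 155 and 139 against 102 and 95.7 CPM (adjusted p = 9.37e-06). The separase ESPL1, which cuts cohesin, was lower in SW480 at 62.4 and 67.2 against 97.1 and 105 CPM (-0.64 ± 0.0751, adjusted p = 2.32e-06), and its inhibitor PTTG1 differed by 0.13 (-0.03 to 0.29, adjusted p = 0.141). SGO1, the protector of centromeric cohesin, was lower (-0.51, adjusted p = 0.000231), while SGO2 was not called (0.17, 0.01 to 0.34).

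Spindle and centrosome genes differed in both directions. AURKA and its activator TPX2 were higher in SW480, AURKA at 182 and 178 against 127 and 126 CPM (0.51 ± 0.0631, adjusted p = 3.78e-06) and TPX2 at 486 and 474 against 311 and 304 CPM (0.64 ± 0.0593, adjusted p = 1.7e-07). BORA, which helps AURKA activate PLK1, differed by -0.01 (-0.18 to 0.16). CKAP2 (Entrez gene 26586, chr13:52455478-52476627), a microtubule-stabilizing protein, was 327 and 339.8 CPM in SW480 shControl and 175 and 175 CPM in DLD-1 shControl, 1.91-fold higher (adjusted p = 5.54e-08). PLK4 and NEK2 were lower. PLK4 was 52.2 and 52.3 against 78.6 and 80.6 CPM (-0.61 ± 0.0761, adjusted p = 4.66e-06) and NEK2, which separates duplicated centrosomes, was 44.3 and 46.7 against 65.6 and 67.3 CPM (-0.55 ± 0.0733, adjusted p = 9.05e-06). Of the 13 genes of this role 5 were higher and 5 were lower in SW480 with shControl, where 73.8% of all genes were called in either direction.

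Subunits of the same complex differed in opposite directions, in a comparison where 38.1% of all genes were higher and 35.6% lower in SW480 shControl. The NDC80 complex holds 4 proteins in equal numbers, and in SW480 shControl NDC80 (77.1 and 72.6 against 53.6 and 51.0 CPM, 0.52 ± 0.0760) and SPC25 (41.0 and 36.7 against 31.1 and 28.8 CPM, 0.37 ± 0.0859) were higher. NUF2 (37.5 and 37.4 against 45.7 and 44.5 CPM, -0.27 ± 0.0938) and SPC24 (15.1 and 14.4 against 29.4 and 27.1 CPM, -0.94 ± 0.0996) were lower, with adjusted p of 2.29e-05, 0.00122, 0.0178 and 8.31e-07. NDC80 pairs with NUF2 and SPC24 with SPC25 in coiled coils, so that the direction of the mRNA differed inside both pairs. The shNAT10 libraries gave 0.50, 0.68, -0.33 and -0.73 for the same genes, all called. The call of NUF2 was among those lost on leaving out a library, in both sets. Protein levels were not measured in these data. SPC24 (Entrez gene 147841, chr19:11145493-11155782) had the lowest estimate of all members in the controls. Outside the complex, CENPA was 32.9 and 30.6 against 23.5 and 23.5 CPM (0.43, adjusted p = 0.000356) and the motor CENPE 70.7 and 72.8 against 46.6 and 52.9 CPM (0.53, adjusted p = 0.000864), both higher in SW480. ZWINT, which binds KNL1, was lower at 71.9 and 64.3 against 106 and 116 CPM (-0.71, adjusted p = 1.19e-06), as was KNL1 (-0.38, adjusted p = 0.0105). SKA1 was lower too, at 35.6 and 33.8 against 50.2 and 48.7 CPM (-0.51, adjusted p = 2.2e-05).

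In the condensin I complex, SMC2 (Entrez gene 10592, chr9:104088263-104141419) was 111 and 125 CPM in SW480 shControl and 189 and 201 CPM in DLD-1 shControl (-0.73 ± 0.0867, adjusted p = 2.62e-06), and the bridging subunit NCAPH was 83.2 and 75.3 against 130.2 and 131 CPM (-0.72 ± 0.0708, adjusted p = 3.38e-07). SMC4 (-0.34) and NCAPD2 (-0.19) were lower by less, and NCAPG was the only one of these 5 subunits higher in SW480, with 136 and 133 against 109.6 and 111 CPM (0.29, adjusted p = 0.00195). In the passenger complex, INCENP, its scaffold, was higher (93.1 and 101 against 65.0 and 73.3 CPM, 0.49, adjusted p = 7.41e-05). BIRC5 was lower (87.4 and 77.9 against 94.96 and 94.1 CPM, -0.19, adjusted p = 0.0313), a call that was lost under 3 other settings (adjusted p of 0.0526 to 0.0638) and without DLD-1 shControl replicate 1, DLD-1 shControl replicate 2 or SW480 shControl replicate 2 (0.0862 to 0.292). CDCA8, borealin, differed by 0.00 (-0.16 to 0.16). TOP2A (-0.06, -0.22 to 0.10) and MKI67 (-0.20, -0.43 to 0.02) were not called in the controls.

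The direction of a member was compared with that of the genes around it on the chromosome, a comparison chosen after the line values had been seen. For each member the median log2 fold change (SW480 against DLD-1, shControl) was taken over the other genes tested that start within 5.0 megabases (11 to 199 genes, median 43.5). Across the 56 members the correlation with the member's own value was 0.43 (Pearson) and 0.43 (Spearman), given as a description, since members on the same arm share neighbours and every value comes from the same 4 libraries. Of the 38 called members 28 had the sign of their neighbours and 10 the opposite sign. Some of these medians lay near 0, as for NEK2 (-0.01) and SGO1 (-0.02) with the same sign. So did those of CKS2 (-0.03) and ASPM (-0.04), with the opposite sign. The matching share over all genes was not computed. The 4 members on chromosome 20, CDC25B, TPX2, AURKA and UBE2C, were all higher in SW480, and the medians of their neighbours were 0.22, 0.48, 0.69 and 0.74. Of the other 362 genes tested on that chromosome 59.1% were higher and 18.5% lower. On chromosome 10, CDK1 and ZWINT shared neighbours with a median of -0.88, and on chromosome 4, CCNA2 and MAD2L1 shared neighbours with a median of -0.45. Against their neighbourhoods went CENPE (0.53 with neighbours at -0.38), HMMR (-0.45 with 0.65), NCAPH (-0.72 with 0.28) and SMC2 (-0.73 with 0.22). Besides CKS2 and ASPM, the other called members of opposite sign were ESPL1 (-0.64 with 0.18), NDC80 (0.52 with -0.11), NCAPD2 (-0.19 with 0.19) and NCAPG (0.29 with -0.11). UBE2S stood far above its own neighbours (0.11).

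Among genes that work beside the members, 3 were called on knockdown in SW480 and none in DLD-1. Of all genes tested 0.903% were called lower and 0.778% higher in SW480, and 0.0147% lower and 0% higher in DLD-1. No gene of the APC/C core list (15 tested), the centromere and kinetochore partner list (23), the list of other mitotic kinases and phosphatases (15) or the list of mitotic transcription regulators (20) was called in the knockdown of either line, and in DLD-1 none of the 12 cohesin or 16 G1/S genes was called. In SW480, 1 of 12 cohesin genes was called, RAD21, the subunit that separase cuts, which fell with a log2 fold change of -0.33 ± 0.0685 (adjusted p = 0.0305). Of the G1/S list 2 of 16 fell, the cyclin CCND1 (-0.32 ± 0.0671, adjusted p = 0.0305) and its kinase CDK6 (-0.39 ± 0.0918, adjusted p = 0.0488). All 3 calls were lost without SW480 shControl replicate 1, SW480 shControl replicate 2 or SW480 shNAT10 replicate 1 (adjusted p of 0.121 to 0.408), with SW480 fitted alone (0.129 to 0.171) and without a low-count filter (0.0845 to 0.143). CDK6 also lost its call with median-ratio (0.0547) and upper-quartile normalization (0.0518) and with the length correction (0.0657), where its estimate was -0.25. Under all of these settings the estimates of the 3 genes stayed below 0. Without SW480 shNAT10 replicate 1 they were -0.24 (RAD21), -0.30 (CCND1) and -0.25 (CDK6). Without SW480 shNAT10 replicate 2 they were further from 0, at -0.42, -0.34 and -0.53. Between the lines in the controls, 5 APC/C genes were higher and 5 lower of 15, 6 higher and 12 lower of 23 centromere and kinetochore partners, 4 and 6 of 12 cohesin genes, 3 and 11 of 15 kinases and phosphatases, 2 and 11 of 20 transcription regulators, and 3 and 11 of 16 G1/S genes. Together 79 of these 101 genes were called, 22.8% higher and 55.4% lower, beside 38.1% and 35.6% of all genes. In the list of kinases and phosphatases the lowest p belonged to WEE1, the inhibitory kinase of CDK1, at -1.43 and MASTL, the Greatwall kinase, at -1.31 (adjusted p = 2.32e-10 and 3.44e-10). MAD1L1, the kinetochore anchor of MAD2, was 3.16-fold higher in SW480, where MAD2L1 was lower. In the APC/C itself ANAPC15, which helps release the checkpoint inhibitor, was higher (1.07) and the subunit ANAPC7 was lower (-1.03).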

How the data were processed

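RNA of 4 groups (SW480 and DLD-1, shControl or shNAT10, 2 libraries each) was purified on oligo(dT) beads and sequenced as single-end reads on the BGISEQ-500. The submitters' processing notes name HISAT2 2.0.4, Bowtie2 2.2.5, RSEM 1.2.12 and the build hg38. The authors deposited RSEM estimated counts per RefSeq transcript, not normalized, and FPKM values per transcript, normalized by the authors for length and depth. In SW480 shNAT10 replicate 2 the deposited FPKM column ended early (18.6% of transcripts without a value), so that FPKM levels are given for the other groups only. Counting did not state the use of strand, so overlapping genes may share reads.

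Counts were summed per Entrez gene (symbols for 99.3% of 17309 genes), rounded and filtered (filterByExpr, minimum count 10, minimum total 15), which left 13619 genes. One model of 4 groups was fitted with edgeR 4.0.16 (TMM, quasi-likelihood test, limma 3.58.1, R 4.3.3; common biological coefficient of variation 0.0585), and p-values were adjusted by Benjamini-Hochberg over all genes tested, with calls at an adjusted p under 0.05. CPM are TMM-normalized. Nothing in the labels says that the replicates came from separate cultures or infections, so p-values measure only the spread between these libraries, which may be technical. Total counts of 15147805 to 17271336 per library set the precision, and intervals are 95% intervals of the fit. Tested on simulated data with 200 genes changed by a log2 fold change of 0.5, the fit recovered 68.5% in the SW480 comparison (13394 genes) and 65.5% in the DLD-1 comparison (13367 genes). The simulated libraries shared the same mean level per gene and spread trend. They held neither the wider spread between the SW480 shNAT10 libraries nor the relation with transcript length. Changes smaller than 0.5 were not simulated, so recovery of changes as small as those of the members was not measured. DESeq2 1.42.0, other normalizations and filters, a replicate block, each line alone and leaving out each library were tried as alternatives, and corrections for transcript length and GC content were added after the data had been seen.

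The members and gene lists were chosen with earlier results of these data known. The choice of names started in every comparison from CDK1, CCNB1, CDC20, BUB1B, AURKA, NDC80, CENPA, BIRC5, TOP2A, MKI67, FOXM1, PTTG1 and PLK4. Added to these were members past the study's limits on knockdown and the 10 called members of lowest p per direction between the lines. Per list, genes called on knockdown and the 2 of lowest p between the lines were added. Not all of these are given a value in each comparison above. Of the list genes, CENPH, PDS5B, ESCO2, E2F2, TFDP1, CCNE1, MCM5, EPCAM and CDH1 are left out. Other members named were chosen for their role or after their values had been seen. Promoters came from RefSeq (GRCh38.p14) and transcript lengths from the longest coding transcript in GENCODE.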

Additional observations from a re-analysis of the deposited data

How the results depend on the processing

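The replicate numbers were not taken to pair the libraries, since the deviations of same-numbered libraries correlated at only -0.01 to 0.13 across groups. Even so, replicate 1 minus replicate 2 went with transcript length in the same direction in all 4 groups. Over the members the Pearson r ran from -0.67 to -0.19, and what same-numbered libraries shared was not tested. With the replicate block, 9 mitotic genes were called in the SW480 knockdown (ASPM, AURKA, CKAP2L, KNL1, MKI67, SMC2, SMC4 and TOP2A lower, UBE2S higher) and 1 in the difference of the effects (ASPM), where the fit without the block called 0 and 0. Of all genes tested 12.1% and 1.53% were called with the block, against 16.1% of the members in the SW480 knockdown. In the SW480 knockdown DESeq2 called 1 (SMC2) and the transcript length correction 1 (AURKA), and leaving out 1 library gave 0 to 15, the 15 without SW480 shNAT10 replicate 2. The 2 members past the study's limits there became 1 without a low-count filter, with DESeq2, with the length correction and with each line alone, and 0 with the GC correction, and leaving out 1 library gave 0 to 10. In DLD-1 the 0 members past those limits became 0 to 2 on leaving out 1 library (2 when DLD-1 shControl replicate 2 was dropped, 1 when DLD-1 shNAT10 replicate 2 was). The difference of the effects gave 0 to 1 called on leaving out 1 library (1, ASPM, without SW480 shNAT10 replicate 2). Calls in the DLD-1 knockdown stayed at 0 under all alternatives. In the main fit 38 and 41 members were called between the lines (shControl and shNAT10 libraries), beside 10046 and 10149 of the 13619 genes tested. For the alternatives, the shares of all genes past the study's limits or called between the lines were not computed. Between the lines the number of members called stayed at 34 to 44 in the shControl and 37 to 45 in the shNAT10 libraries.

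Estimates near 0 changed sign in places. In the SW480 knockdown CDC20 and PTTG1 became -0.0206 and -0.112 with the length correction, CDK1 and NDC80 became 0.0184 and 0.00191 with the GC correction, and leaving out 1 library gave -0.0623 to 0.0831 (BUB1B), -0.0407 to 0.219 (CDC20), -0.182 to 0.00552 (CDK1), -0.0712 to 0.0346 (FOXM1) and -0.0379 to 0.128 (PTTG1). In the DLD-1 knockdown BUB1B became -0.00388 with upper-quartile normalization and -5.09e-05 without a filter, CDK1 and TOP2A became 0.00328 and 0.00498 with the GC correction, and PTTG1 became 0.0144 with the length correction. Leaving out 1 library there gave -0.026 to 0.181 (ASPM), -0.0522 to 0.0188 (AURKA), -0.0539 to 0.0551 (BUB1B), -0.0521 to 0.186 (MKI67), -0.0698 to 0.000272 (PLK4), -0.0955 to 0.0294 (PTTG1) and -0.074 to 0.0351 (TOP2A). The cause of these changes was not tested. With 2 libraries a group and 4 residual degrees of freedom the precision is limited to the intervals given, and where a library is left out the lone library of its group is assumed to vary like the other groups.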
